A study of Mus musculus with 2 samples.

Results

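H3K27ac, an acetylation of the histone H3 tail, was profiled by chromatin immunoprecipitation and sequencing (ChIP-seq) in mouse mesenchymal stromal cells without Dicer (labelled Dicer KO) and with it (Dicer WT). The sites described here are the KO-higher H3K27ac events that were moderate in size and stood apart from other listed events. They were chosen by measured values of this contrast. A site had to lie on a placed chromosome and have KO reads below 6 times the scaled WT reads. It also needed a gap of more than 5 kb to the next event of the KO-higher H3K27ac list, and of more than 10 kb to any event of the other 5 lists. Those 5 lists hold the WT-higher H3K27ac events and the events of H3K4me3 and H3K36me3 in both directions. In all, 2860 of 8323 KO-higher H3K27ac events met the rule (34.4%, exact 95% interval 33.3 to 35.4), out of 21418 events in the 6 lists.

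Both groups were immortalized lines of monoclonal origin, called MSCs in the protocol and fibroblasts in the sample titles, and no treatment separates them in the labels. Each genotype had 1 labelled sample, and the H3K27ac lists came from pooled replicates. A difference between the genotypes can therefore not be told apart from a difference between clones, nor more cells with the mark from more mark per cell. No replicate error exists, and no test of a genotype effect was made. Sequencing depth is unknown, so the reads at each site set its precision, and intervals below cover counting error only. The lists hold positions in mm9 and no gene names, so neither the labelled cell type nor the relation of sites to genes was examined.

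Dicer cuts microRNA precursors into mature microRNAs, which repress messenger RNAs after transcription. H3K27ac is laid down by acetyltransferases of the CBP family and is found at active enhancers and active promoters. H3K4me3 marks promoters and H3K36me3 the bodies of transcribed genes. Active enhancers often lie far from promoters, either as single elements or in dense clusters along one domain. A list of differences holds only places where a mark changed, so a site with no listed H3K4me3 nearby may still carry that mark at like levels in both lines.

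The rule took its members in steps. A ratio below 6 on placed chromosomes left 7942 events, and 3299 of these had no neighbour within 5 kb in their own list. Of the 3299, 439 had an event of another list within 10 kb and were left out. KO-higher H3K4me3 lay near 206 of the 3299 and KO-higher H3K36me3 near 203, while WT-higher H3K36me3 lay near 37 and WT-higher H3K4me3 near 21. WT-higher H3K27ac lay within 10 kb of 0 of the 3299, and the smallest such gap was 12.9 kb. So H3K4me3 and H3K36me3 alone decided which of the 3299 dropped out. Like counts over all KO-higher H3K27ac events are not given here, so these describe the selection and no trait of isolated events.

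At the median site, KO had 334 reads and WT 119 scaled reads. KO reads ranged from 147 to 3362, with quartiles of 272 and 418. Scaled WT reads ranged from 29.7 to 819, with quartiles of 90.6 and 161. WT reads were thus counted at every one of the sites, and the median ratio of KO to WT was 2.77 (quartiles 2.41 and 3.37). Whether these WT reads stood above background was not tested, so they do not by themselves show the mark in WT. A ratio from 2 to below 4 was seen at 2326 sites (81.3%), from 5 to below 6 at 102 and below 2 at 190. At least 2-fold more reads in KO were found at 2670 of the 2860 sites (93.4%), beside 89.7% of all KO-higher H3K27ac events, and since the rule used this ratio the 2 shares show nothing about the sites. The lower limit of the interval lay above 2 at 2126 sites (74.3%), beside 73.4% of all KO-higher events. It lay above 1 at all 2860 sites, as at all 8323 listed events, each of which was called higher in KO from these reads.

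**Figure D1:**
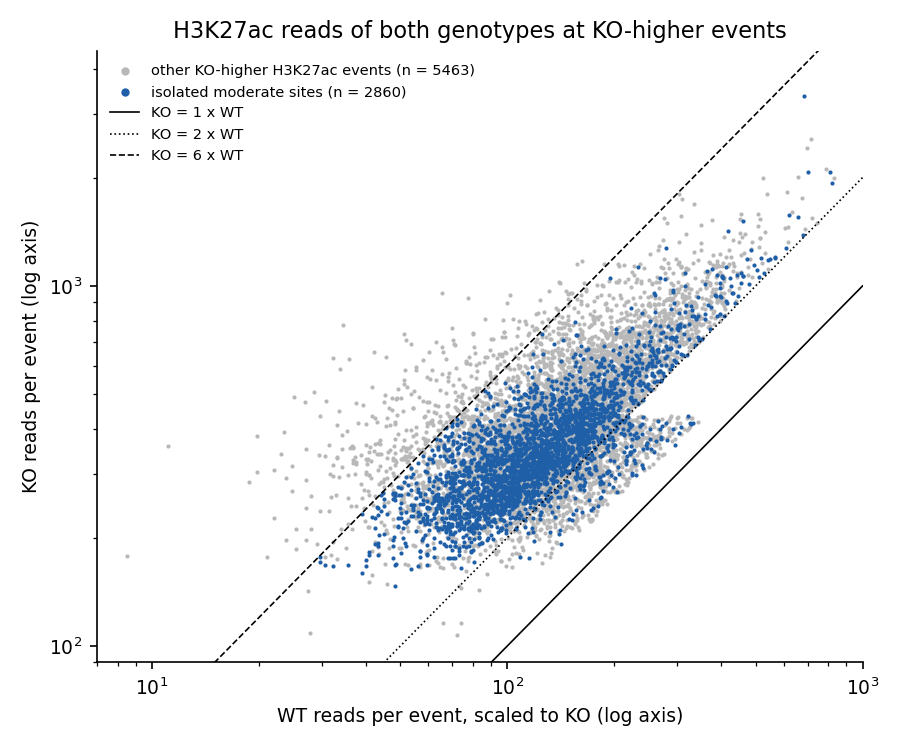
KO reads per event (vertical, log axis) against scaled WT reads (horizontal, log axis) for the 2860 isolated moderate sites (blue) and the 5463 other KO-higher H3K27ac events (grey), with lines at equal reads and at ratios of 2 and 6. The blue sites fill the middle of the cloud, and above about 435 KO reads no event lies under the 2-fold line.

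That scatter has a straight lower border. Among the sites, those below 2-fold had at most 434.6 KO reads, and all 630 sites with more reads had a ratio of at least 2. The whole list had the same border: of 2891 events with more than 434.9 KO reads, 0 were below 2-fold. In the WT-higher list it stood at 315 WT reads. No filter of this kind is given in the sources used here, and what draws the border was not tested.

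The site with the largest deposited −log10 q lay at 92098909 on chromosome 15. It had 3362 KO reads and 684 scaled WT reads, a ratio of 4.91 (4.55 to 5.32), and more KO reads than any other event of the list. Its next KO-higher neighbour was 8.07 kb away, so it counts as isolated by a narrow margin, and it is moderate in ratio but not in reads. The second, at 88597757 on chromosome 4, had 2077 KO reads and 703 scaled WT reads (ratio 2.95, 2.72 to 3.20), with 20.4 kb to the next event. At 15465294 on chromosome 14, KO had 1274 reads and WT 280 (4.55, 4.02 to 5.15). A further leading site of that chromosome, at 26594196, had 1055 KO reads and 194 in WT (5.44, 4.72 to 6.31). Both lay within 6.5 kb of another KO-higher event, at 6.01 and 6.44 kb.

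On chromosome 6, the site at 17092849 had 1129 KO reads and 233 scaled WT reads (4.84, 4.23 to 5.53) and was 27.3 kb from the next event. The site at 80751405 on chromosome 18 had 1513 against 462 (3.28, 2.97 to 3.62), and that at 4093568 on chromosome 19 had 1417 against 418 (3.39, 3.06 to 3.76). High read numbers in both genotypes were seen at 25441575 on chromosome 16, with 2067 KO reads and 811 in WT (2.55, 2.36 to 2.76). The last 2 of the 10 leading sites were 7841442 on chromosome 15 (1055 against 268, ratio 3.93, 3.46 to 4.47) and 123510397 on chromosome 14 (737 against 125, ratio 5.89, 4.94 to 7.09). Of these 10 sites, 8 had a KO-higher neighbour between 5.06 and 8.07 kb away. Over all sites the median gap to the next event was 20.2 kb. At 25441575 on chromosome 16 a KO-higher H3K36me3 event lay 11.9 kb away, close to the limit for other lists.

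Each of the 20 chromosomes had sites, and the leading site of each had between 397 (X) and 3362 (15) KO reads. Leading sites with high WT reads were 107647838 on chromosome 3 (1930 KO reads, 819 scaled WT reads, ratio 2.36, 2.18 to 2.55) and 91135261 on chromosome 5 (1579 against 622, ratio 2.54, 2.32 to 2.77). At 45884035 on chromosome 17 the reads were 1261 against 485 (2.60, 2.35 to 2.87). With the site on chromosome 16, these had the 4 lowest ratios among the 20 leading sites. In the opposite corner, the site at 6815279 on chromosome 10 had 491 KO reads and 89.2 in WT (5.50, 4.45 to 6.86), the highest ratio among the 20. Close to it were 36928990 on chromosome 8 (647 against 118, ratio 5.48, 4.56 to 6.63) and 157896699 on chromosome 2 (539 against 98.5, ratio 5.47, 4.47 to 6.74). The intervals of those 3 ratios overlapped almost fully.

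Between these extremes, leading sites had 793 reads against 155 at 22592861 on chromosome 11 (5.13, 4.36 to 6.06) and 688 against 135 at 45008918 on chromosome 13 (5.09, 4.28 to 6.09). Reads of 574 against 115 were found at 89987613 on chromosome 7 (5.004, 4.14 to 6.08), and of 646 against 156 at 107215628 on chromosome 9 (4.15, 3.52 to 4.92). At 170168369 on chromosome 1 the reads were 954 against 258 (3.69, 3.24 to 4.22), and at 16871958 on chromosome 12 they were 839 against 239 (3.51, 3.06 to 4.02). Of these 6 sites, 5 had a KO-higher neighbour at 5.72 to 7.04 kb, near the 5 kb limit. The leading site of chromosome X, 141951095, was an exception. With 397 KO reads and 95.1 in WT (4.17, 3.38 to 5.19), it was 3025 kb from the next KO-higher H3K27ac event and 1964 kb from any event of another list.

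Typical sites were smaller. At the median of the ratio stood 63405596 on chromosome 13, with 341 KO reads and 123 scaled WT reads (2.77, 2.27 to 3.39). The lower quartile fell at 34121424 on chromosome 16, with 437 against 181 (2.41, 2.05 to 2.86), and the upper quartile at 32610625 on chromosome 13, with 380 against 113 (3.37, 2.75 to 4.13). The interval of the median site overlapped those of both quartile sites, while the intervals of the quartile sites met only between 2.75 and 2.86.

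The fewest KO reads were found on chromosomes X, 14 and 12. At 148385396 on chromosome X, KO had 147 reads and WT 48.4 (3.04, 2.22 to 4.20), and at 97665161 on the same chromosome they were 159 and 39.1 (4.07, 2.91 to 5.78). On chromosome 14 the sites at 67593023 and 78882421 had 164 against 53.5 (3.07, 2.28 to 4.17) and 165 against 73.9 (2.23, 1.71 to 2.93). The site at 28662206 on chromosome 12 had 167 against 32.4 (5.15, 3.62 to 7.57). Intervals were wide at this end of the list.

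Sites at the lower end of the ratio, chosen after their values were seen, had similar reads in both genotypes. At 188303037 on chromosome 1, KO had 362 reads and WT 296 (1.22, 1.05 to 1.42). The next were 76670166 on chromosome 10, with 418 against 333 (1.25, 1.09 to 1.44), and 31020538 on chromosome 6, with 414 against 330 (1.26, 1.09 to 1.45). At these sites the lower limits came close to equal reads.

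Just inside the ratio limit were 37006940 on chromosome 1 (233 against 38.9, ratio 5.995), 31912563 on chromosome 7 (403 against 67.3, 5.98) and 138020325 on chromosome 4 (416 against 69.7, 5.97). Just outside it were 77561554 on chromosome 7 (408 against 68, ratio 6), 79315716 on chromosome 8 (378 against 62.9, 6.01) and 74373364 on chromosome 11 (511 against 85, 6.01). All 6 had intervals that covered both sides of the limit. Isolated events at a ratio of 6 or more and away from other lists numbered 72, so the ratio limit took away 2.46% of the 2932 isolated events.

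At the 5 kb limit, the closest sites inside were 39908613 on chromosome 1, 5.004 kb from its neighbour (373 against 125, ratio 2.98), and a pair on chromosome 12, at 86142875 (281 against 78.2, 3.59) and 86147882 (350 against 85, 4.12), 5.007 kb from each other. Just outside were 45485841 on chromosome 4 at 4.999 kb (231 against 164, ratio 1.41), 28566157 on chromosome 5 at 4.998 kb (654 against 130, 5.03) and 139615172 on chromosome 7 at 4.997 kb (212 against 125, 1.70). At the 10 kb limit, sites inside lay at 104124159 on chromosome 13 (10.04 kb, ratio 2.61), 116764662 on chromosome 3 (10.05 kb, 3.58) and 94954541 on chromosome 13 (10.1 kb, 3.42). Those outside lay at 90916501 on chromosome 16 (9.99 kb, 2.62), 37942042 on chromosome 3 (9.90 kb, 2.71) and 127584670 on chromosome 1 (9.83 kb, 3.63).

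Isolation was a matter of degree. The next KO-higher H3K27ac event lay 5 to 10 kb away for 906 sites (31.7%), 10 to 20 kb for 518, 20 to 50 kb for 492, 50 to 100 kb for 318, 100 to 1000 kb for 553 and farther for 73 (2.55%). Sites with a neighbour at 5 to 10 kb had a median of 359 KO reads and a ratio of 2.93. With a neighbour at 100 to 1000 kb the medians were 323 reads and 2.62, so values were lower where neighbours were farther (Spearman's rho over the 2860 sites -0.16 for reads and -0.15 for the ratio). Scaled WT reads stayed between 114 and 124 across these distance bands. Within 50 kb on either side, 944 sites (33.0%) had no other KO-higher event, and within 500 kb 162 (5.66%) had none. The median site had 2 other events within 50 kb and 9 within 500 kb. Clustered moderate events, which met the other conditions but had a neighbour within 5 kb, had medians of 4 and 13. Part of this difference is fixed in advance, because the rule split the groups by neighbours within 5 kb.

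**Figure D2:**
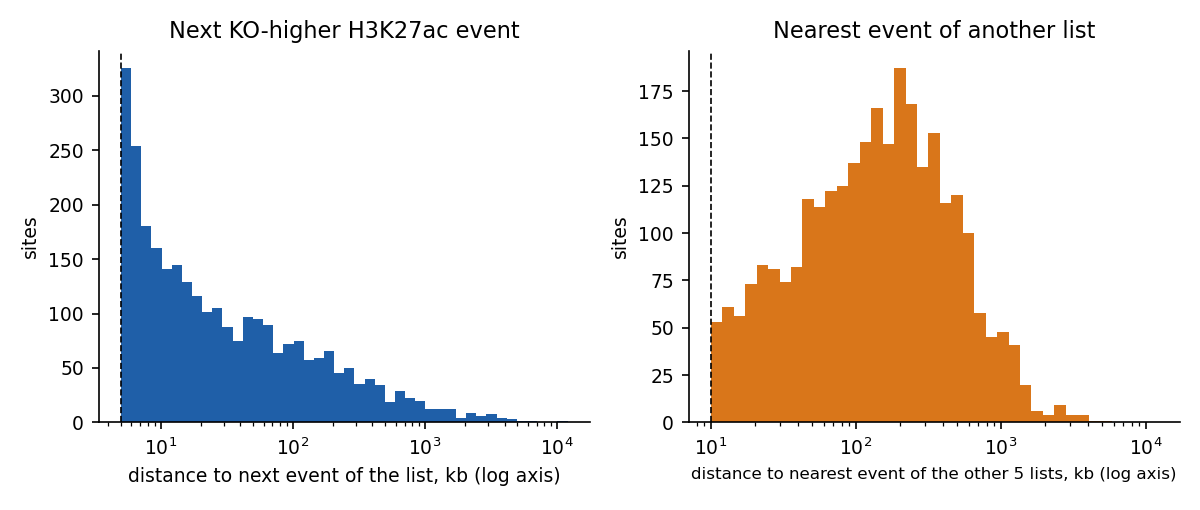
Number of isolated moderate sites by distance in kb (log axes) to the next KO-higher H3K27ac event (left) and to the nearest event of the other 5 lists (right), with dashed lines at the limits of 5 and 10 kb. Sites are most numerous right at the 5 kb limit and spread to beyond 1000 kb, while distances to other lists have their median at 143 kb.

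For 1572 sites (55.0%) the next KO-higher event was itself an isolated moderate site, and for 940 (32.9%) it was a clustered moderate event. When events within 5 kb were merged, sites made up 53.8% of the 5312 regions, close to the 55.0%. The share of regions takes no account of how densely events lie from place to place. Whether sites pair with each other was therefore not tested. Among the 906 sites with a neighbour at 5 to 10 kb, 502 were next to another isolated moderate site. These 502 are 17.6% of the 2860 sites. Over all 1572 the median distance to the next site was 20.5 kb. The emptiest surroundings were those of 91635606 on chromosome 14, with 168 KO reads and 35.7 in WT (4.71, 3.34 to 6.77), 10329 kb from its neighbour and 3730 kb from any other list. Next came 117470526 on chromosome 12 (366 against 90.4, ratio 4.05, 3.27 to 5.09), 59215697 on chromosome 17 (330 against 132, 2.50, 2.06 to 3.05) and 86547561 on chromosome 5 (267 against 98.5, 2.71, 2.17 to 3.399). Their nearest event of any list was 2932, 2569 and 2446 kb away. Against the median of 334 KO reads over all sites, the sites on chromosomes 14, 17 and 5 had fewer reads, and those on chromosomes 12 and X had more.

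Beyond the 10 kb set by the rule, 227 sites (7.94%) had an event of another list at 10 to 20 kb, 439 at 20 to 50 kb, 464 at 50 to 100 kb, 1606 (56.2%) at 100 to 1000 kb and 124 farther away. The nearest was most often a KO-higher H3K36me3 event, at 925 sites (32.3%, beside 35.6% of clustered moderate events), although that list held only 1709 events. The lists were made with different callers, so their lengths and these counts are not strictly alike. WT-higher H3K4me3 came first at 721 sites (list of 5542), KO-higher H3K4me3 at 644 (list of 738), WT-higher H3K36me3 at 368 (list of 3341) and WT-higher H3K27ac at 202 (list of 1765). Within 50 kb lay a KO-higher H3K36me3 event at 11.3% of sites (10.1 to 12.5) and a KO-higher H3K4me3 event at 7.34% (6.41 to 8.36). For the longer WT-higher lists these shares were 3.01% (2.41 to 3.70) and 4.97% (4.20 to 5.83), and for WT-higher H3K27ac 0.455% (0.242 to 0.776), that is 13 sites. Clustered moderate events had shares of 11.8%, 7.88%, 2.33%, 4.16% and 0.654% in the same order. In each list the shares of isolated and clustered events differed by less than 1 percentage point. The median ratio lay between 2.72 and 2.90 in every band of distance to other lists.

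A measure that the rule did not use directly is whether the deposited KO reads are whole numbers. They were deposited with 1 decimal, and a value counted as whole where that decimal was 0. KO reads were whole at 2036 of the 2860 sites (71.2%, 69.5 to 72.8) and not whole at 824, although no listed event lay within 5 kb of these. The share was 76.4% (64.9 to 85.6) for isolated events at a ratio of 6 or more, 68.6% (64.0 to 72.9) for isolated moderate events beside another list, 31.7% (30.3 to 33.2) for clustered moderate events and 47.7% for all KO-higher events. The 3 isolated groups thus had overlapping intervals, above that of the clustered events. Whole reads also went with wider gaps inside each group. The median gap to the next event was 3263 bp with whole reads and 1561 bp with fractions among clustered moderate events. Among the sites it was 22193 and 16089 bp. The rule used such gaps, so the measure is not independent of it. By distance to the next listed event the share ran from 67.6% (10 to 20 kb) to 79.5% (beyond 1000 kb). Sites with fractions had a median of 352 KO reads, 145 scaled WT reads and a ratio of 2.48, and sites with whole reads 328, 111 and 2.86. Within 300 to below 400 KO reads the ratios were 2.42 at 323 sites and 2.89 at 659. Below 2-fold, 39 of 190 sites (20.5%) had whole reads, and at 2-fold or more 1997 of 2670 (74.8%). What the fractions stem from was not tested.

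The deposited shape score of the KO reads split the sites in the same way. Its definition is not given in the sources used here, and it is used only to describe. Over all sites it ran from -1.53 to -0.09 with a median of -0.75, and 570 sites (19.9%) lay from -1.5 to below -1.0 while 1659 (58.0%) lay from -0.8 to below -0.6. Among sites with whole reads, 2.70% were in the lower range and 75.9% in the upper. Among those with fractions the shares were 62.5% and 13.7%. The median score was -0.71 with whole reads and -1.11 without, and -0.72 and -1.19 within 300 to below 400 KO reads.

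**Figure D3:**
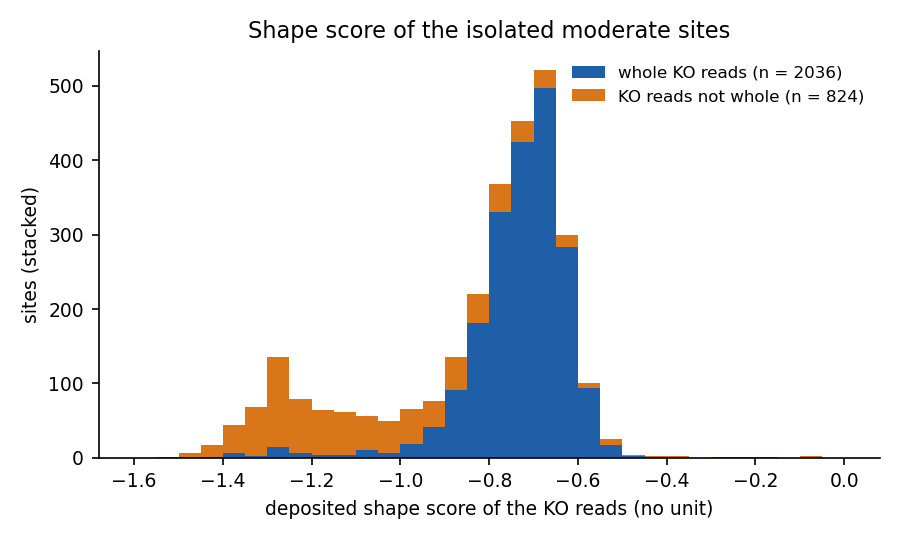
Number of isolated moderate sites (stacked bars) by deposited shape score, for the 2036 sites with whole KO reads (blue) and the 824 with fractions (orange). The blue sites form 1 peak between -0.8 and -0.6, and most of the orange sites lie below -1.0.

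Set beside clustered moderate events, the sites had fewer reads. Medians were 334 KO reads, 119 scaled WT reads and a ratio of 2.77 for the 2860 isolated sites, and 399, 149 and 2.81 for the 3820 clustered events. Ratios lay farther apart among events with whole KO reads, at 2.86 for isolated and 3.21 for clustered events, and were 2.48 and 2.57 among those with fractions. Within 300 to below 400 KO reads the order was reversed, with median ratios of 2.76 for isolated and 2.65 for clustered events. For the 439 isolated events beside another list the medians of KO reads, scaled WT reads and ratio were 342, 114 and 3.01. Isolated events at a ratio of 6 or more had a median of 347 KO reads, close to that of the moderate sites, but 45.9 scaled WT reads. These groups come from the rule and from the same 2 libraries, so no test was made between them.

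The mirror rule in WT found 585 of 1765 WT-higher H3K27ac events (33.1%, 30.9 to 35.4), a share close to the 34.4% in KO. Those WT-higher sites had a median of 281 WT reads against 85.3 scaled KO reads, and a ratio of 3.18 (quartiles 2.58 and 4.43). Their neighbours were farther away, with a median of 45.9 kb, in a list of fewer events. Each list has its own scale, so ratios of the KO-higher and WT-higher lists are not strictly alike.

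By chromosome, sites made up 26.3% (21.9 to 31.1) of the KO-higher H3K27ac events on chromosome 15 and 48.3% (39.0 to 57.7) on chromosome 9. The share over all placed chromosomes was 34.4%. Intervals lay wholly above it on 4 of the 20 chromosomes (7, 9, 10 and X) and wholly below it on 3 (6, 12 and 15). The intervals treat events as independent, but the rule decides close neighbours together, so they do not serve as tests. Chromosomes 9 and X had few KO-higher events, 118 and 89, and their sites were widely spaced, with median gaps of 83.2 and 98.4 kb to the next event against 15.2 kb on chromosome 13. Since the rule asks for gaps within this list, the share also depends on how densely a chromosome's events lie. The largest numbers of sites were 261 on chromosome 2 and 260 on chromosome 1. Relative to the span covered by listed events, chromosome 12 had the most, 17.6 per 10 Mb, and chromosome X the fewest, 2.63. Of 273 stretches of 10 Mb with any listed event, 254 held a site, with a median of 9 each, and the stretch from 100 to 110 Mb on chromosome 13, chosen after its count was seen, held 42. Sites were thus spread over nearly the whole genome.

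**Figure D4:**
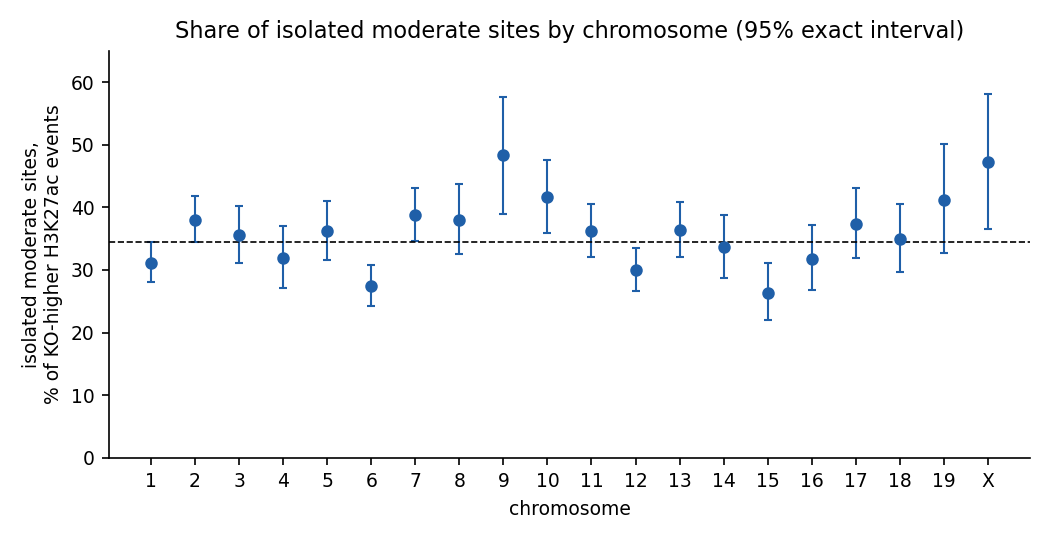
Isolated moderate sites as a percentage of the KO-higher H3K27ac events of each chromosome (points) with exact 95% intervals for counting error (bars), and the share of 34.4% over all placed chromosomes (dashed line). Chromosomes 9 and X are highest and chromosomes 15 and 6 lowest.

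The reads a site needed differed between chromosomes. The KO list gives each chromosome 1 value of expected reads, from 76.2 on X to 295.5 on chromosome 19. How these values were derived is not given in the sources used here. The lowest KO reads of a site followed it, from 147 on X to 341 on chromosome 19. On the chromosomes other than X, the site with the fewest reads had 1.15 to 1.24 times the expected value, and on X 1.93 times. Median KO reads ran from 256 on chromosome 12 to 416 on chromosome 19. Over all sites, KO reads had a median of 1.68 times the expected reads. The deposited q followed the weaker of 2 deposited p-values, one against the other genotype and one from a Poisson model (Spearman's rho 1.00 over 8323 events). The Poisson value compares KO reads with the expected reads: the deposited −log10 p was 0.986 to 1.05 times the value recomputed from these 2 numbers, over the 8049 events where it was below 300. At 1720 of the 2860 sites (60.1%) the Poisson p was the weaker one, against 36.3% of clustered moderate events and 47.1% of all KO-higher events. At those 1720 sites the deposited q thus followed the p-value that compares KO reads with the chromosome's expected reads, not the p-value against WT.

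**Figure D5:**
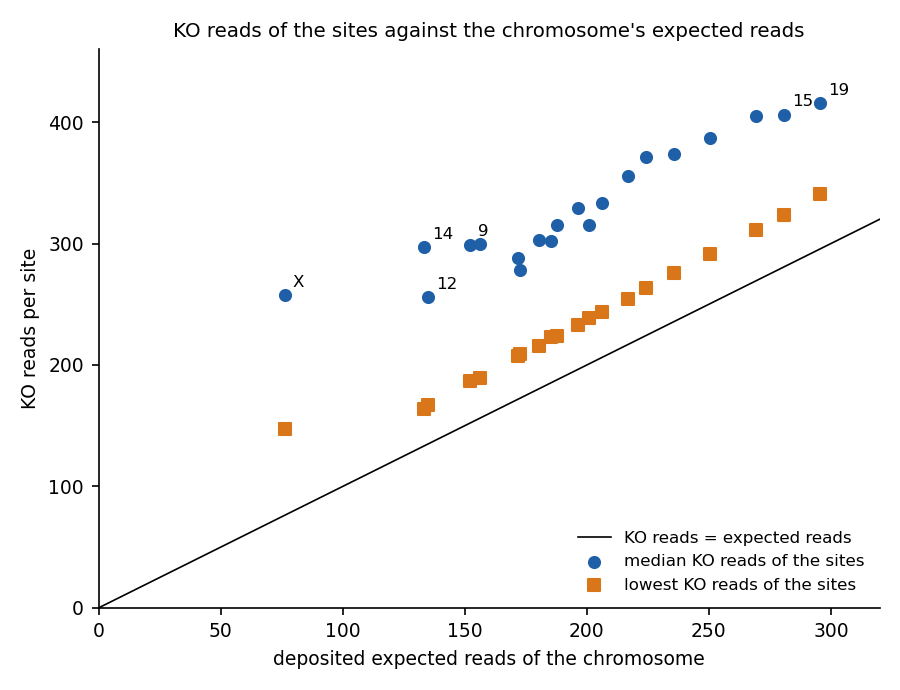
Median (blue circles) and lowest (orange squares) KO reads of the isolated moderate sites on each chromosome against the deposited expected reads of that chromosome, with a line at equality. The lowest values lie above the line, at 1.15 to 1.24 times the expected reads except on X, where 147 reads are 1.93 times the 76.2 expected.

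The size of the difference depends on the scale. An alternative divides KO reads by the chromosome's expected reads in the KO list and unscaled WT reads by those in the WT list, taking each list's value to stand for its higher genotype, which the sources used here do not state. On it, the median ratio of the sites was 2.03 (quartiles 1.74 and 2.49) in place of 2.77. On this scale 1498 of the 2860 sites (52.4%) were at least 2-fold higher in KO, beside 55.8% of all KO-higher events on placed chromosomes, and 20 sites were below 1. The lowest was 188303037 on chromosome 1, at 0.846. At the scale of the list, medians by chromosome lay between 2.49 (19) and 3.08 (12). In units of expected reads chromosome 9 stood apart at 3.21, and the others lay between 1.79 (6) and 2.48 (X). Expected reads on chromosome 9 were 152 in the KO list and 212 in the WT list, while on chromosome 12 they were 135 and 93.6. Chromosome 12 also had the most sites per 10 Mb, 17.6, and chromosome 9 had 4.73. Chromosome X had the fewest, 2.63, with expected reads of 76.2 in the KO list and 76.4 in the WT list. The cause of these differences was not tested.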

How the data were processed

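Reads were aligned to mm9, and TopHat 1.4 is named without its role, per the submitters' processing notes. The H3K27ac lists hold events of the caller GPS with replicates pooled, per the file headers and names. Per event, the authors deposited an estimated count for the higher genotype and a scaled signal for the other. Also deposited were their ratio (fold), expected signal per chromosome, −log10 q and p values (limited at 999, starting at a −log10 q of 2) and shape scores. For the other marks only positions were used. The names of those lists hold the term noControl, which the names of the H3K27ac lists lack. What it means for the listed events was not examined. The KO-higher H3K36me3 list is named as from GPS, and the WT-higher H3K36me3 list and both H3K4me3 lists as from the caller GEM.

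The ratio is the estimated count over the scaled signal. The WT scale, 0.8495, was the step at which whole multiples (within 0.06) of the control values most exceeded chance. It was sought only at the 3971 events with whole KO reads, where it held for 88.8% of control values. The KO scale in the WT-higher list, sought the same way, was 1.0935, which is not the inverse of 0.8495. Ratios and their intervals therefore hold at the scale of their own list, and lower limits close to 1 depend on it. Read intervals are conditional binomial (Clopper-Pearson) intervals at 95% of reads rounded to whole numbers. They are approximate where KO reads have fractions, since the scale was not checked there. Distances are between event positions. The selection was tested on simulated lists. Named sites are the 10 with the largest q, the first of each chromosome, those with most or fewest reads, the farthest, and those at quartiles and limits. Sites and choices were made with earlier results of these data known. Python 3.11.15, NumPy 2.4.6, pandas 2.3.3 and SciPy 1.17.1 were used.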

Additional observations from a re-analysis of the deposited data

How the results depend on the processing

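Of 17 alternatives for the number of sites, 15 stayed within 1.5 times 2860. A gap of 2 kb within the list gave 4769 sites, while 1843 sites reached a −log10 q of 10. The median ratio of 2.77 became 2.83 with a 2 kb gap, 2.71 with a 10 kb gap, 2.82 for a −log10 q from 10 up, and 2.03 in units of expected reads. Split by whole and fractional reads, chosen after seeing the data, it was 2.86 and 2.48. The share of the list, 34.4%, became 33.1% at a ratio limit of 5, 57.3% and 23.5% with gaps of 2 and 10 kb, and 36.1% and 31.6% with other lists at 5 and 20 kb. It was 39.6% with WT-higher H3K27ac as the only other list, 32.6% and 30.9% for a −log10 q from 5 and from 10 up, and 53.8% of the 5312 regions merged within 5 kb. With a 10 kb gap the shares on chromosomes 9 and 15 were 35.6% and 16.1%, and of merged regions 64.0% and 46.0%. Chromosome 9 was above 15 throughout. These were the chromosomes with the highest and lowest share, and the alternatives reuse the same events, so the kept order is no independent support. The stricter rules keep fewer events by construction. No paired analysis was possible because each list gives 1 pooled value per genotype and no replicates. Unknown depth and the absence of replicate error limit every value.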
